A study of Mus musculus with 17 samples.

Results

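Toll-like receptors are the membrane-bound pattern receptors of innate immunity, and their transcripts were followed here in 2 mouse immune cell types exposed to a STING agonist. The genes described are Tlr1, Tlr2, Tlr3, Tlr4, Tlr6, Tlr7, Tlr8, Tlr9, Tlr13 and Cd14, which were taken by gene symbol from both deposited count tables, 10 of 55491 genes in each table. All 10 passed the filter on low counts in both cell types, and Tlr8 did so in B cells through the MSA2 libraries alone. The study measured bulk RNA of spleen B cells and of bone marrow-derived dendritic cells (BMDC), which the design text says were harvested from KPC mice, a pancreatic cancer model, while the genotype label of every sample reads WT. Both cell types were incubated with MSA2, an agonist of the DNA-sensing adaptor STING, with MSA2 plus IPI-549, an inhibitor of the PI3K gamma kinase, or without either. The question was which genes each treatment changes in the cultured cells. Groups were taken from the sample titles, because the treatment label reads Control for every sample. The B cells gave 3 Control, 3 MSA2 and 3 combination libraries, and the BMDC gave 3 Control, 3 MSA2 and 2 combination libraries. No group received IPI-549 alone, and age, dose and time of incubation are not given in the sources used here. The labels do not say whether libraries of a group came from separate animals or cultures, so p-values measure the spread between these libraries, which may be technical.

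Toll-like receptors recognise conserved microbial molecules and pass the signal through the adaptors MyD88 and TRIF to NF-kB and to interferon regulatory factors. Tlr1, Tlr2, Tlr4 and Tlr6 act mainly at the cell surface, where Tlr2 pairs with Tlr1 or Tlr6 to bind bacterial lipoproteins and Tlr4 binds lipopolysaccharide handed over by the co-receptor CD14. Tlr3, Tlr7, Tlr8, Tlr9 and Tlr13 act in endosomes and bind nucleic acids, and resting mouse B cells are known to respond to ligands of Tlr7 and Tlr9.

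The B cell libraries held 41093440 to 51433008 counts each, and those of BMDC 34760025 to 73166643. Summed markers of B cells (10 genes, none at 0) stood at 7793 to 8396 CPM (read counts scaled to the library total) in the Control B cell libraries, 7921 to 8703 CPM in the combination libraries and 3983 to 4481 CPM in the MSA2 libraries. The 3 MSA2 libraries stood apart from the other B cell libraries in markers of other cell types. Their 10 monocyte and macrophage markers summed to 1230 to 1364 CPM, against 42.1 to 60.5 CPM in Control and 42.3 to 45.5 CPM in combination libraries. Their 10 neutrophil markers summed to 1503 to 1584 CPM, against at most 32.4 CPM in Control and 0.352 to 0.887 CPM in combination libraries, with Elane at 0 in both latter groups. The 10 T cell markers summed to 901 to 1165 CPM, against 12.3 to 32.1 CPM and 7.81 to 9.37 CPM, with Cd3e at 0 in the combination group. The 8 red cell precursor markers summed to 1055 to 1228 CPM, against 21.7 to 44.9 CPM and 18.2 to 22.6 CPM. The sums of the dendritic cell lists did not rise. Conventional markers summed to 1022 to 1279 CPM with MSA2 against 1177 to 1432 CPM in Control, and plasmacytoid markers to 681 to 812 CPM against 1227 to 1281 CPM. Of their genes, 6 of 9 and 5 of 8 were called higher. All 3 MSA2 libraries of B cells share the raised markers, so no comparison with that group can be made without them. Their library numbers also all come after those of the other B cell groups, which cannot be told apart from the treatment. In BMDC, the 9 conventional dendritic cell markers summed to 1578 to 2050 CPM and the 10 monocyte and macrophage markers to 12789 to 18108 CPM over the 3 groups, with none of either list at 0.

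The positions of the genes (GRCm38, GENCODE M21) bear on how their reads can be assigned. Tlr1 (chr5:64924679-64933563, minus strand) and Tlr6 (chr5:64952031-64960097, minus strand) are neighbours, with 18467 bases and no protein-coding gene between them. They share sequence: 15.4% of the 50-base stretches of Tlr1 transcripts and 12.3% of those of Tlr6 also occur in another gene, mostly in each other, so a part of their reads is split by estimate. Tlr8 (chrX:167242696-167264329) and Tlr7 (chrX:167304929-167330558), both on the minus strand, lie 40599 bases apart with no protein-coding gene between them. The exons of Tlr3 (chr8:45395665-45411080, minus strand) overlap the antisense gene Gm45542 over 7.32% of their length, and whether counting used strand is not given in the sources used here. Tlr2 (chr3:83836272-83841767, minus strand), Tlr9 (chr9:106222598-106226883, plus strand), Tlr13 (chrX:106143204-106160493, plus strand), Tlr4 (chr4:66827584-66930284, plus strand) and Cd14 (chr18:36725067-36726798, minus strand) have no overlap with exons of other genes.

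Untreated B cells and untreated BMDC carried different sets of receptor transcripts. On the scale of CPM per kilobase of exon, which allows genes to be compared, Tlr9 (22.8 ± 1.21, SD, n = 3) and Tlr1 (20.8 ± 0.79) had the highest levels in Control B cells, and their ranges overlapped. Tlr7 followed at 12.2 ± 1.33 CPM per kilobase. Together these 3 genes made up most of the receptor transcripts of Control B cells: Tlr9 36.9% to 37.4%, Tlr1 33.3% to 34.9% and Tlr7 18.9% to 20.9% of the summed CPM per kilobase of the 9 receptor genes. The next genes in order were Tlr6 (1.82 CPM per kilobase), Tlr2 (1.57) and Tlr4 (1.26), whose ranges did not overlap. Cd14 (0.815 CPM per kilobase) and Tlr3 (0.790) overlapped each other, and Tlr13 (0.184) and Tlr8 (0.0269) came last.

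In Control BMDC the order was led by Cd14, at 129 ± 12.1 CPM per kilobase (SD, n = 3). Tlr2 (61.1 ± 7.39 CPM per kilobase), Tlr13 (42.2 ± 3.78) and Tlr4 (32.8 ± 2.35) followed, and no neighbours in the whole order overlapped. Tlr7 (15.0 CPM per kilobase), Tlr8 (8.26), Tlr6 (4.85) and Tlr9 (3.72) lay in the middle. Tlr1, which pairs with Tlr2, stood at 1.91 CPM per kilobase and Tlr3, the receptor of long RNA duplexes, at 0.981. The summed level of the 9 receptor genes was 158 to 178 CPM per kilobase in Control BMDC and 58.0 to 65.1 in Control B cells.

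A direct test between the Control groups called all 10 genes, where 79.9% of the 17740 genes tested in the joint fit were called. In BMDC, 8 genes were higher, where 39.3% of all genes were, and 2 were lower, where 40.6% were. Both the 10 and the 8 include Tlr8, which reached the filter on low counts in no Control B cell library. It entered the joint fit through groups where it is high and so had to differ, and its value is a description. Tlr13 differed by 7.94 ± 0.17 (SE) and Cd14 by 7.41 ± 0.22 on the log2 scale. Tlr8 had a log2 difference of 8.28 ± 0.29, which rests on 14 counts over the Control B cell libraries and ran from 7.83 without B cell Control replicate 2 to 9.39 without replicate 1. Tlr2 was higher by 5.38 ± 0.22 and Tlr4 by 4.81 ± 0.17 on the log2 scale. Tlr1 and Tlr9 went the other way, with log2 differences of -3.34 ± 0.08 and -2.52 ± 0.23. The call of Tlr3 (log2 difference 0.42 ± 0.16, adjusted p = 0.0205) was lost without B cell Control replicate 1 (adjusted p = 0.0843) or 2 (0.0876) or BMDC Control replicate 1 (0.0799), and with upper quartile scaling (0.0692). The 2 cell types carry different library series in their descriptions, so the series and the cell type cannot be told apart.

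**Figure D1:**
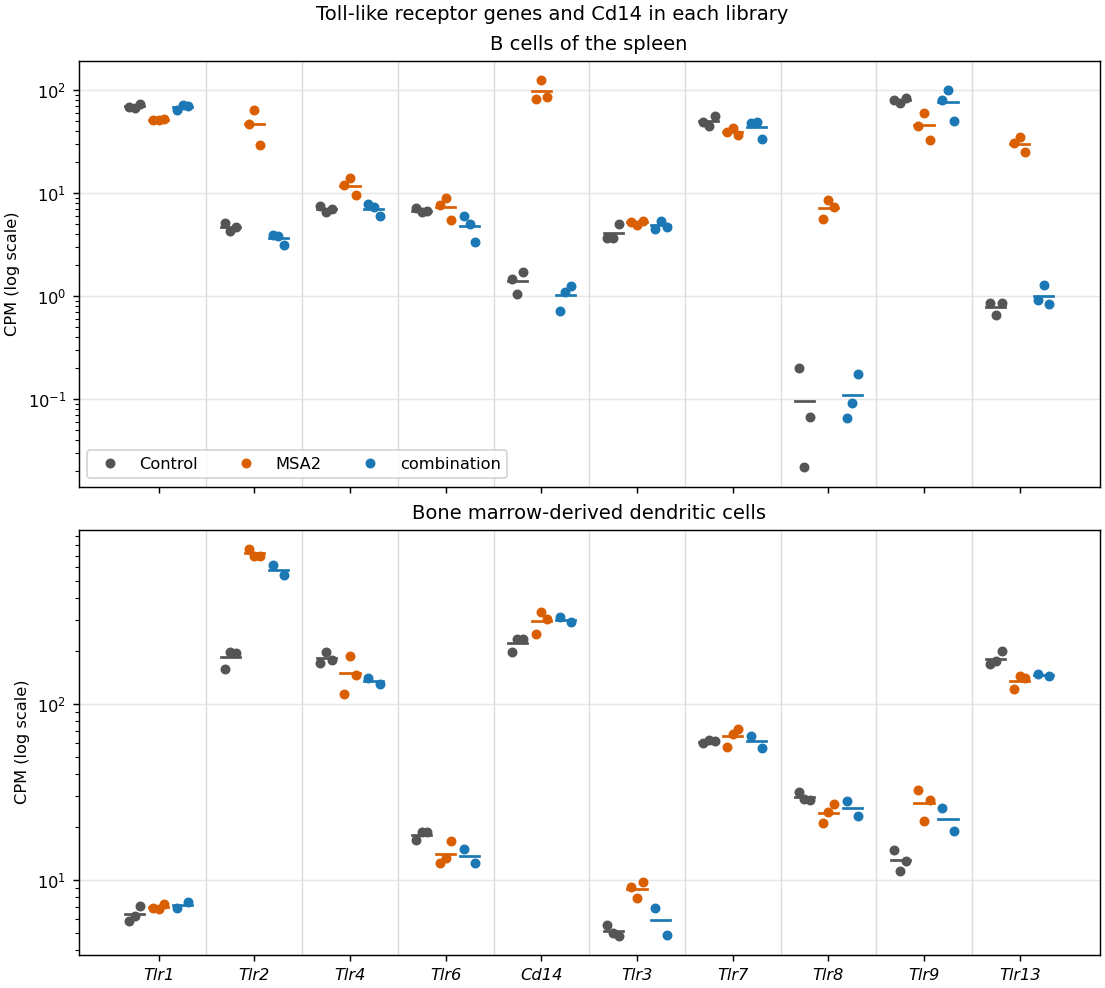
CPM (log scale) of the 9 Toll-like receptor genes and Cd14 in each library of B cells (top) and BMDC (bottom), with 1 point per library, grouped by treatment, and a bar at each group mean. In B cells the MSA2 libraries of Tlr2, Cd14, Tlr8 and Tlr13 lie far above the other groups, and in BMDC the MSA2 and combination libraries of Tlr2 lie at 541 to 764 CPM, above all Control libraries.

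In B cells, 5 of the 10 genes were higher with MSA2 than in Control and 2 were lower, where 43.4% of the 16180 genes tested were called (24.9% higher and 18.5% lower). The 5 include Tlr8, which passed the filter only through the MSA2 libraries and so had to differ; without it, 4 of 9 genes were higher. The genes that rose were Tlr2, Tlr4, Tlr13 and Cd14, and those that fell were Tlr1 and Tlr9. The median log2 fold change of the 10 genes, Tlr8 included, was 0.55, against -0.01 over all genes tested. In the same comparison the monocyte and macrophage markers rose in 10 of 10 cases (median log2 fold change 5.30) and the neutrophil markers in 10 of 10 (7.31), of which 2 and 7 passed the filter only through the MSA2 libraries, whereas 10 of 10 markers of B cells fell (-0.87). The part of these other cell types in the receptor changes was not tested. In bulk libraries, fewer cells of a type and less RNA per cell cannot be told apart.

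Among the surface receptors, Tlr2 stood at 5.16, 4.33 and 4.72 CPM in the Control B cell libraries, at 47.1, 63.8 and 29.5 CPM with MSA2 and at 3.92, 3.87 and 3.10 CPM with the combination. The MSA2 libraries lay above all others, and the combination libraries lay just below the Control libraries. Its log2 fold change with MSA2 was 3.30 ± 0.24 (SE; 9.88-fold; Benjamini-Hochberg adjusted p = 8.50e-07 by edgeR's quasi-likelihood test). Cd14, the co-receptor that delivers lipopolysaccharide to Tlr4, stood at 1.48, 1.05 and 1.71 CPM in Control, 82.5, 124 and 86.0 CPM with MSA2 and 0.714, 1.10 and 1.25 CPM with the combination. No MSA2 library overlapped the other groups, which overlapped each other, and the log2 fold change was 6.11 ± 0.24 (68.9-fold). Tlr4 rose less: its libraries stood at 7.49, 6.52 and 6.95 CPM in Control, 11.9, 14.0 and 9.56 CPM with MSA2 and 7.86, 7.38 and 5.97 CPM with the combination. The MSA2 libraries again did not overlap the others (log2 fold change 0.76 ± 0.15, adjusted p = 0.00200). The ratio of Cd14 to Tlr4, each in CPM per kilobase, was 0.517 to 0.789 in Control, 22.2 to 28.9 with MSA2 and 0.292 to 0.675 with the combination.

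Tlr1 and Tlr6, the alternative partners of Tlr2, did not follow it in B cells. Tlr1 stood at 68.4, 67.7 and 72.6 CPM in Control, 51.2, 51.3 and 52.3 CPM with MSA2 and 64.5, 71.4 and 69.6 CPM with the combination. The MSA2 libraries lay below all others and within a narrow range, and Tlr1 fell by 0.43 on the log2 scale (SE 0.07, adjusted p = 0.000335). Tlr6 ranged from 6.49 to 7.09 CPM in Control, from 5.43 to 8.88 CPM with MSA2 and from 3.32 to 5.93 CPM with the combination. Its MSA2 libraries spanned the Control range, with a log2 fold change of 0.11 (95% interval -0.36 to 0.58).

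Among the endosomal receptors, Tlr9, which binds unmethylated CpG DNA, stood at 79.6, 75.1 and 83.6 CPM in Control, 44.9, 59.4 and 32.6 CPM with MSA2 and 79.3, 99.6 and 50.3 CPM with the combination. The MSA2 libraries lay below every Control library, while replicate 3 of the combination lay between the MSA2 replicates. Tlr9 fell by 0.80 on the log2 scale with MSA2 (SE 0.24, adjusted p = 0.0185), and the call was lost without Control replicate 3 (adjusted p = 0.0508) or MSA2 replicate 3 (0.0511). Tlr7, which binds guanosine-rich single-stranded RNA, stood at 49.2, 44.8 and 55.6 CPM in Control, 39.4, 42.6 and 36.7 CPM with MSA2 and 48.4, 49.0 and 33.3 CPM with the combination. Its MSA2 libraries lay below the Control libraries, but the log2 fold change of -0.33 (95% interval -0.64 to -0.02) did not pass the threshold over all genes (adjusted p = 0.0766). Tlr7 was called lower by edgeR in a fit of the 2 groups alone (adjusted p = 0.0255) and with no filter on low counts (0.0303). Tlr7 and Tlr9 were both lowest in replicate 3 of the MSA2 group and in replicate 3 of the combination group. The ratio of Tlr9 to Tlr7, in CPM per kilobase, was 1.76 to 1.97 in Control and 1.04 to 1.64 with MSA2.

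Tlr13, a receptor of bacterial ribosomal RNA, stood at 0.859, 0.656 and 0.854 CPM in Control B cells, 30.8, 35.2 and 24.8 CPM with MSA2 and 0.909, 1.28 and 0.836 CPM with the combination. The MSA2 libraries lay far above both other groups, with a log2 fold change of 5.25 ± 0.20 (38.2-fold, adjusted p = 7.40e-09). Tlr8, a neighbour of Tlr7 on the X chromosome, was nearly absent from the other B cell libraries, with 14 counts over the 3 Control libraries, 15 over the combination libraries and 975 over the MSA2 libraries. In CPM these were 0.200, 0.0219 and 0.067 in Control, 5.65, 8.51 and 7.40 with MSA2 and 0.065, 0.092 and 0.176 with the combination. Tlr8 was tested only because of its MSA2 libraries, since none of the others reached the filter's 0.222 CPM, and its fitted log2 fold change of 6.14 ± 0.43 is therefore given as a description; it was 7.25 without Control replicate 1. Tlr3 ranged from 3.65 to 5.01 CPM in Control and from 4.92 to 5.40 CPM with MSA2, ranges that overlapped, and its log2 fold change of 0.34 (95% interval 0.00 to 0.68) was not called (adjusted p = 0.0943), though it was without Control replicate 3 (0.0183).

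With the combination, none of the 10 genes differed from Control in B cells by edgeR's quasi-likelihood test, where 1.06% of all genes tested were called (0.686% higher and 0.371% lower). None was called by DESeq2 or limma-voom either. At an unadjusted p under 0.05 there was 1, Tlr6, with a log2 fold change of -0.52 (95% interval -0.99 to -0.04) and an adjusted p of 0.476. Its 3 combination libraries, at 5.93, 4.97 and 3.32 CPM, lay below the 3 Control libraries at 7.09, 6.49 and 6.75 CPM. For Tlr1 the interval was narrow, from -0.17 to 0.13 on the log2 scale, and for Tlr9 it was wide, from -0.58 to 0.46. The interval of Tlr2 ran from -0.93 to 0.16, that of Cd14 from -1.08 to 0.15 and that of Tlr13 from -0.16 to 0.85.

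Set directly against MSA2 alone, the combination libraries of B cells were lower in 6 genes and higher in 2, where 37.0% of all genes were called (14.1% higher and 22.9% lower). The 6 again include Tlr8, tested only through the MSA2 libraries, whose log2 fold change of -5.98 ± 0.42 (SE) is a description; without it, 5 of 9 genes were lower. Cd14 was lower by a log2 fold change of -6.57 ± 0.25, Tlr13 by -4.91 ± 0.19 and Tlr2 by -3.69 ± 0.25. Tlr4 (-0.74 ± 0.15) and Tlr6 (-0.63 ± 0.22, adjusted p = 0.0414) were lower by less. Tlr1 (0.41 ± 0.07) and Tlr9 (0.74 ± 0.24, adjusted p = 0.0301) were higher. The same MSA2 libraries enter here and in the comparison with Control, so the opposite signs are not independent. The Tlr6 call was lost without combination replicate 2 or 3 or MSA2 replicate 1 or 2 (adjusted p = 0.0810, 0.116, 0.101 and 0.159) and in a fit of the 2 groups alone (0.0794). The Tlr9 call was lost without combination replicate 1 or 2 or MSA2 replicate 1 or 3 (adjusted p = 0.0764, 0.127, 0.0691 and 0.0738) and in a fit of the 2 groups alone (0.0626). These fits ignore the replicate numbers, though same-numbered libraries of the 2 groups correlated in their deviations from the group means (0.232 to 0.426). With a replicate block in edgeR, Tlr6 and Tlr9 stayed called. In a blocked fit of the 2 groups alone, added after seeing the data, their adjusted p-values were 0.00383 and 2.42e-05. Differently numbered libraries were not compared, so the pairing is not established, and the blocked values hold only if the numbers pair libraries. In this comparison all 10 monocyte and macrophage markers fell (median log2 fold change -5.54), of which 2 passed the filter only through the MSA2 libraries. All 10 B cell markers rose (0.90), and the part of both marker lists in the receptor differences was not tested.

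**Figure D2:**
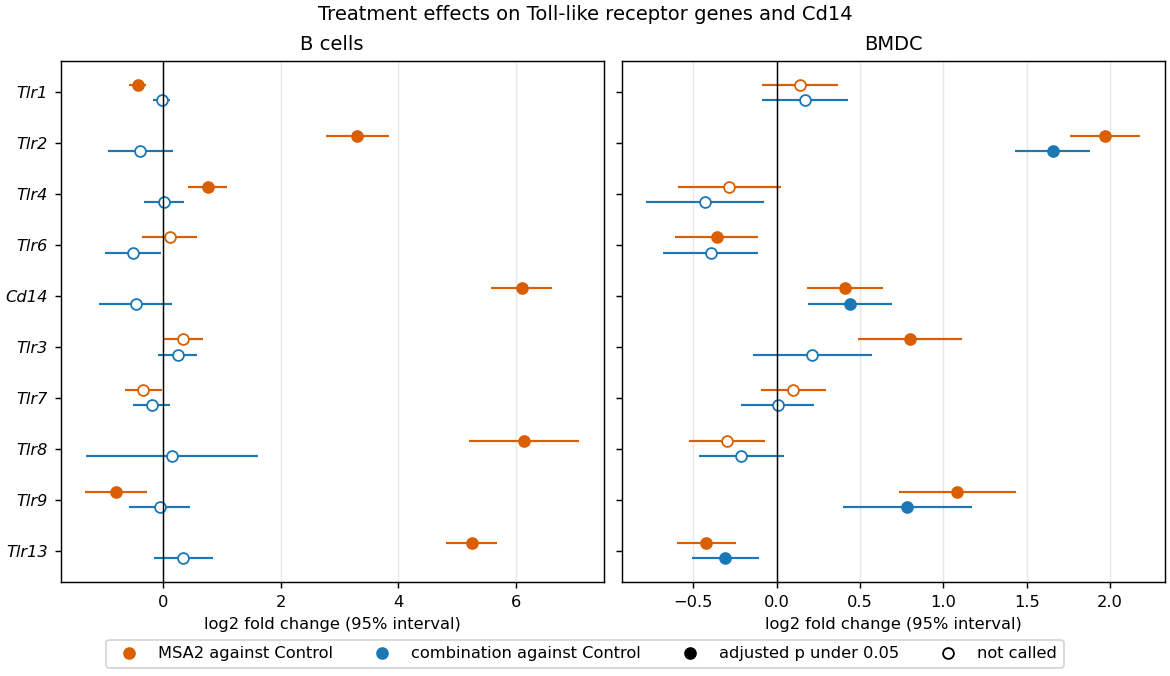
Log2 fold changes against Control with 95% intervals for the 9 Toll-like receptor genes and Cd14, in B cells (left) and BMDC (right, on a narrower axis), for MSA2 and for the combination; filled points have an adjusted p under 0.05. In B cells every combination point is open, whereas in BMDC Tlr2, Tlr9, Cd14 and Tlr13 are filled for both treatments.

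In BMDC, 4 of the 10 genes were higher with MSA2 than in Control and 2 were lower, where 28.2% of the 14614 genes tested were called (14.6% higher and 13.5% lower). Tlr2, Tlr3, Tlr9 and Cd14 rose, and Tlr6 and Tlr13 fell. The median log2 fold change of the 10 genes was 0.12, against -0.01 over all genes. Of the 10 monocyte and macrophage markers 1 rose and 3 fell (median log2 fold change -0.19), and of the 9 conventional dendritic cell markers 3 rose and 2 fell (0.35). Of the 10 neutrophil markers none rose and 1 fell (0.56). The part of these shifts in the receptor changes was not tested.

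Tlr2 had the largest change. It stood at 158, 198 and 196 CPM in Control BMDC, 764, 698 and 700 CPM with MSA2 and 619 and 541 CPM with the combination. The 3 groups did not overlap, with the combination libraries between Control and MSA2. The log2 fold change was 1.97 ± 0.10 with MSA2 (SE; 3.91-fold; adjusted p = 9.31e-08). Its share of the summed CPM per kilobase of the 9 receptor genes went from 33.3% to 37.2% in Control to 69.0% to 74.9% with MSA2 and 66.8% to 67.6% with the combination. With MSA2, Tlr2 at 239 CPM per kilobase stood above Cd14 at 171 CPM per kilobase, the reverse of the order in Control.

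Cd14 stood at 199, 235 and 235 CPM in Control BMDC, 250, 333 and 304 CPM with MSA2 and 314 and 292 CPM with the combination. Every treated library lay above every Control library (log2 fold change with MSA2 0.41 ± 0.10, adjusted p = 0.0120). Without Control replicate 1, the lowest library, the adjusted p was 0.0563. Tlr4 stood at 172, 197 and 178 CPM in Control, 114, 188 and 146 CPM with MSA2 and 141 and 129 CPM with the combination. MSA2 replicate 2 lay inside the Control range and the other 2 MSA2 libraries below it, and the log2 fold change of -0.28 (95% interval -0.60 to 0.03) was not called (adjusted p = 0.164). Without MSA2 replicate 2 it was -0.48 (adjusted p = 0.00648).

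The partners of Tlr2 did not rise with it in BMDC. Tlr1 stood at 5.84, 6.21 and 7.09 CPM in Control, 6.94, 6.84 and 7.30 CPM with MSA2 and 6.94 and 7.44 CPM with the combination. Its groups overlapped, and the 95% interval of the log2 fold change with MSA2 ran from -0.09 to 0.37. Tlr6 stood at 16.9, 18.8 and 18.6 CPM in Control, 12.5, 13.3 and 16.5 CPM with MSA2 and 15.0 and 12.5 CPM with the combination. Every treated library lay below every Control library, and Tlr6 fell by 0.36 on the log2 scale with MSA2 (SE 0.11, adjusted p = 0.0352). That call was lost without Control replicate 2 or 3 or MSA2 replicate 1 or 2, with adjusted p-values of 0.101, 0.0833, 0.0951 and 0.102.

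Among the endosomal receptors of BMDC, Tlr9 stood at 14.8, 11.3 and 12.7 CPM in Control, 32.3, 21.7 and 28.4 CPM with MSA2 and 25.5 and 18.9 CPM with the combination. Every treated library lay above every Control library, and the log2 fold change with MSA2 was 1.08 ± 0.16 (SE; 2.12-fold; adjusted p = 0.000422). Tlr3 stood at 5.56, 4.95 and 4.81 CPM in Control, 9.07, 7.92 and 9.76 CPM with MSA2 and 6.94 and 4.87 CPM with the combination. Its MSA2 libraries lay above all others (log2 fold change 0.80 ± 0.14, adjusted p = 0.00149), while the combination overlapped Control. Tlr13 went down, from 170, 175 and 200 CPM in Control to 122, 145 and 140 CPM with MSA2 and 148 and 145 CPM with the combination. Every treated library lay below every Control library, and with MSA2 it fell by 0.42 on the log2 scale (SE 0.08, adjusted p = 0.00250).

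Tlr8 stood at 31.4, 28.9 and 28.5 CPM in Control BMDC, 21.0, 24.2 and 27.0 CPM with MSA2 and 28.1 and 23.0 CPM with the combination. Its treated libraries lay below the Control libraries, but the log2 fold change of -0.30 with MSA2 (95% interval -0.52 to -0.07) missed the threshold narrowly (adjusted p = 0.0530). DESeq2 and limma-voom called it, with adjusted p-values of 0.0371 and 0.0470. Tlr7 stood at 59.7, 62.1 and 61.4 CPM in Control, 57.2, 67.1 and 71.8 CPM with MSA2 and 66.2 and 56.4 CPM with the combination. Its groups overlapped and its log2 fold change had a 95% interval of -0.10 to 0.29 with MSA2 and -0.21 to 0.22 with the combination. The ratio of Tlr9 to Tlr7, in CPM per kilobase, was 0.214 to 0.290 in Control, 0.380 to 0.662 with MSA2 and 0.392 to 0.452 with the combination.

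Promoter sequences are shown for the 2 receptors that rose in BMDC with both treatments, Tlr2 and Tlr9, and for Tlr13, which fell, as RefSeq gives them on GRCm38.p6; 7 of the 10 genes were found in that table. Each sequence is read 5' to 3' on the gene's strand from 250 bases before the RefSeq start to the first exon base of GENCODE, and capitals mark matches to the NF-kB, ISRE core or AP-1 motif.
Tlr2, chr3:83841768-83841858, minus strand: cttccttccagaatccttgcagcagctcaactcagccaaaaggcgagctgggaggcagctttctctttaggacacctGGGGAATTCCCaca
Tlr9, chr9:106222348-106222597, plus strand: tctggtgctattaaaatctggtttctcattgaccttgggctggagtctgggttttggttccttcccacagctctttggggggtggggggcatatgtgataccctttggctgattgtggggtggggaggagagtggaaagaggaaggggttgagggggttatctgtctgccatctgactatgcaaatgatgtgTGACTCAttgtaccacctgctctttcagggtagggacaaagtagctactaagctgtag
Tlr13, chrX:106143025-106143203, plus strand: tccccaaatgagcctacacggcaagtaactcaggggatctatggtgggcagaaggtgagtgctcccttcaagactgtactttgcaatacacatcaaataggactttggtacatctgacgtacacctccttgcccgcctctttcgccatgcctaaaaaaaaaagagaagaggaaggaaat

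Motifs were searched on both strands of the 250 bases before each RefSeq start, and a match is a description of letters. The Tlr2 window held 2 overlapping NF-kB matches, 173 and 172 bases before the start, and 3.9% of the 32851 promoter windows in the table held one. The Tlr9 window held 1 AP-1 match (TGANTCA, in 6.75% of windows) 58 bases before the start and 1 ETS match (GAGGAA, in 23.3% of windows) 112 bases before it. The Tlr13 window held 1 ETS match, 83 bases before the start. The Tlr8 window and 1 window of Tlr1 also held 1 ETS match each, 77 and 23 bases before the start. The ISRE core (GAAA, any pair of bases, GAAA, in 2.98% of windows) had 2 overlapping matches in a window of Tlr6, 116 and 110 bases before the start. The GAS motif (TTCNNNGAA, in 7.02% of windows) had 1 match in the Tlr8 window and 1 in the other window of Tlr1. The Tlr3 window held 1 NF-kB match, 211 bases before the start. The Tlr6 window with the ISRE core, the Tlr1 window with the GAS match and the Tlr3 window lie inside the genes as GENCODE bounds them. The Tlr1 and Tlr3 windows hold 211 and 178 exon bases, so these matches do not lie before the GENCODE start. The Tlr2 and Tlr13 windows also hold exon bases, 159 and 71. Their NF-kB and ETS matches lie before those bases, that of Tlr2 just before them.

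**Figure D3:**
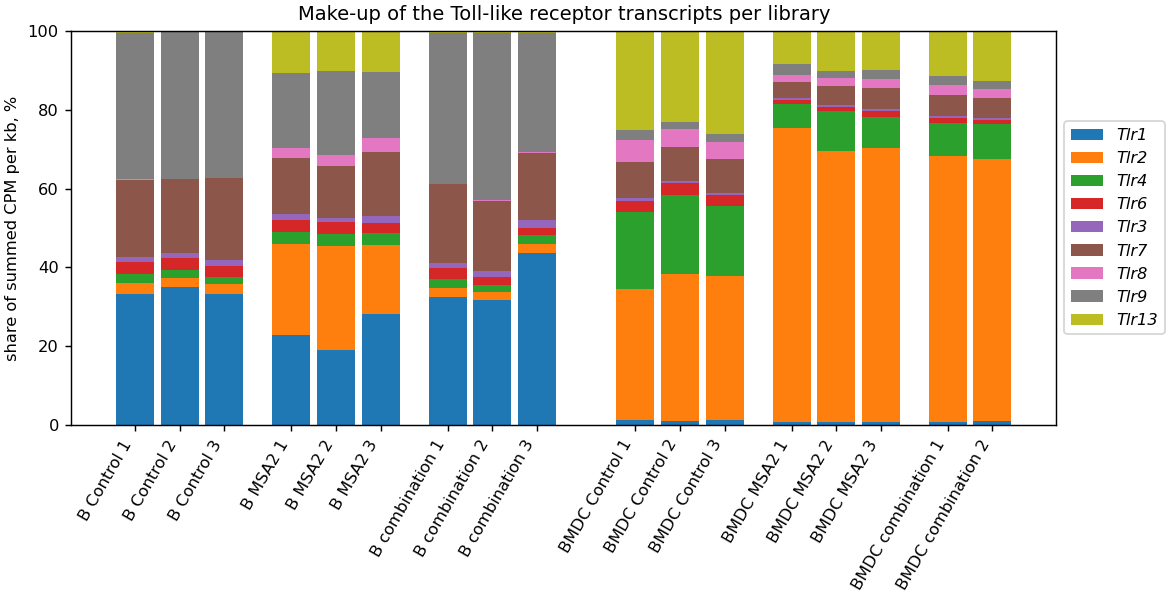
Share of each Toll-like receptor gene in the summed CPM per kilobase of exon of the 9 receptor genes (percent), with 1 bar per library of B cells (left) and BMDC (right). Tlr9 and Tlr1 fill most of the bars of Control and combination B cells, and Tlr2 fills 66.8% to 74.9% of the bars of treated BMDC against 33.3% to 37.2% in Control.

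The endosomal receptors together (Tlr3, Tlr7, Tlr8, Tlr9 and Tlr13) held 38.7% to 43.2% of the summed CPM per kilobase in Control BMDC, 17.5% to 20.4% with MSA2 and 22.1% to 22.5% with the combination. The summed level itself was 333 to 339 CPM per kilobase with MSA2 and 269 to 304 with the combination, against 158 to 178 in Control. The lower endosomal share thus stood beside a higher total that Tlr2 made up for the most part. In B cells the endosomal share was 57.6% to 59.6% in Control, 47.9% to 48.8% with MSA2 and 49.9% to 62.4% with the combination, where replicate 3 was the lowest.

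With the combination, 3 of the 10 genes were higher than in Control BMDC and 1 was lower, where 12.9% of all genes tested were called (7.51% higher and 5.38% lower). Tlr2 rose by 1.66 ± 0.10 on the log2 scale (SE; 3.15-fold; adjusted p = 1.10e-06), Tlr9 by 0.78 ± 0.18 (adjusted p = 0.0130) and Cd14 by 0.44 ± 0.11 (adjusted p = 0.0262). Tlr13 fell by 0.31 (SE 0.09, adjusted p = 0.0485). Tlr4 (log2 fold change -0.43, 95% interval -0.78 to -0.08, adjusted p = 0.1103) and Tlr6 (-0.39, 95% interval -0.68 to -0.11, adjusted p = 0.0715) were not called, though DESeq2 called both (adjusted p = 0.0197 and 0.0364). Tlr3, called with MSA2, had a log2 fold change of 0.21 with an interval of -0.14 to 0.57. The edgeR calls rest on few libraries, since the group holds 2. That of Tlr2 alone was kept with each Control library left out in turn. Tlr9 was no longer called without Control replicate 2 (adjusted p = 0.0504) or combination replicate 1 (0.177). Cd14 was no longer called without Control replicate 1 (0.0944) or combination replicate 1 (0.187) or 2 (0.0885). Tlr13 was not called without any 1 of the 5 libraries in turn, with adjusted p-values of 0.0547 to 0.247, nor by limma-voom (0.0507). Without combination replicate 1 or 2, the group's spread was taken from the other groups, and the count of called genes was 1 or 2.

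Adding IPI-549 to MSA2 in BMDC gave no called gene among the 10, and none among all 14614 genes tested by edgeR's quasi-likelihood test (0% called). At an unadjusted p under 0.05 there were 2 of the 10. Tlr2 was lower by a log2 fold change of -0.31 (95% interval -0.54 to -0.08, adjusted p = 0.336), and Tlr3 was lower by -0.59 (95% interval -0.93 to -0.24, adjusted p = 0.247). Both had combination libraries below all MSA2 libraries. Neither DESeq2 nor limma-voom called any of the 10, and 2 of them, Tlr2 and Tlr3, were called with no filter on low counts. The intervals of Cd14 (-0.22 to 0.28) and Tlr13 (-0.08 to 0.31) bound their log2 differences, and those of Tlr9 (-0.68 to 0.08) and Tlr4 (-0.50 to 0.20) were wider.

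The effects of MSA2 differed between the cell types in 7 of the 10 genes by the test of the difference itself, where 37.0% of 17740 genes differed (16.3% higher in BMDC and 20.7% lower). Tlr1 and Tlr9 had higher log2 fold changes in BMDC than in B cells, and Tlr2, Tlr4, Tlr8, Tlr13 and Cd14 lower ones; for Tlr8, tested in B cells only through the MSA2 libraries, this is a description. Tlr9 went in opposite directions, with a log2 fold change of -0.80 ± 0.24 in B cells and 1.08 ± 0.16 in BMDC (difference 1.89 ± 0.31, adjusted p = 0.000109). Tlr13 also went in opposite directions, up by 5.25 in B cells and down by 0.42 in BMDC (difference -5.67 ± 0.20). For the combination the cell types differed in 1 gene, Tlr2, where 3.04% of genes differed (2.14% higher in BMDC and 0.902% lower). The difference for Tlr2 was 2.01 ± 0.29 (adjusted p = 0.000391). The effect of adding IPI-549 to MSA2 differed in 6 of the 10 genes, Tlr8 included, where 24.1% of genes differed (15.3% higher in BMDC and 8.83% lower). The markers of other cell types in the MSA2 libraries of B cells stand beside each of the differences that use that group, and their part was not tested.

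Among the remaining mouse receptor genes, Tlr5, the flagellin receptor, and Tlr11 and Tlr12, which bind profilin of parasites, were scarce. In B cells, Tlr5 stood at 0.0847 ± 0.0546 CPM in Control, 0.795 to 1.38 CPM with MSA2 and 0.0222 ± 0.0007 CPM with the combination (SD, n = 3). Tlr12 stood at 1.49 ± 0.19 CPM in Control and 3.97 ± 0.47 with MSA2, and Tlr11 at 0.804 ± 0.220 and 2.02 ± 0.48 CPM. All 3 were called higher with MSA2, where 24.9% of all genes were, and Tlr5 could be tested only through its MSA2 libraries. None was called with the combination, where 1.06% of all genes were. The MSA2 libraries of B cells carried the raised markers of other cell types given above, and their part was not tested. In BMDC, Tlr5 and Tlr11 passed the filter and were not called in either comparison with Control, with Tlr5 at 1.38 ± 0.24 CPM in Control.

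Counts of pathway genes in BMDC are read against the 14.6% of all genes that rose and the 13.5% that fell with MSA2, and against 7.51% and 5.38% with the combination. Of 10 transcription factors downstream of the receptors, 8 were higher with MSA2 and none was lower, with a median log2 fold change of 0.71 against -0.01 over all genes. Rel, the NF-kB subunit c-Rel, rose by 1.91 on the log2 scale, Irf7 by 1.29, Irf8 by 1.02 and Relb by 0.72. With the combination, 6 of the 10 rose and none fell (median log2 fold change 0.51 against 0.01 over all genes), with Rel at 1.72, Irf8 at 0.99, Relb at 0.68 and Irf7 at 0.69. Of 20 brakes on receptor signalling, 6 rose and 4 fell with MSA2. Tnfaip3, which encodes the ubiquitin-editing enzyme A20, rose by 4.21, Nfkbia, the inhibitor of NF-kB, by 2.59, Zc3h12a, an RNase that degrades cytokine transcripts, by 1.79 and Atf3 by 1.66. Irak3, a brake on the receptor-proximal kinases, had a log2 fold change of 0.05 and was not called.

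Of 21 kinases and ubiquitin ligases in BMDC, 7 rose with MSA2 and 3 fell, where 14.6% of all genes rose and 13.5% fell. The ubiquitin ligase Peli1 rose by 3.72 on the log2 scale and the kinase Map3k8 by 3.01, while Traf6 rose by 0.51 and Tab1 fell by 0.75. Of the 5 adaptors 4 were tested, and Ticam2, which links Tlr4 to TRIF, fell by 0.83 with MSA2 and by 0.73 with the combination. The adaptors Myd88 (log2 fold change 0.09) and Ticam1 (-0.25) were not called with MSA2. Of 23 chaperones, co-receptors and proteases, 4 rose and 8 fell with MSA2. Among them, 5430427O19Rik, the mouse gene of TASL, an adaptor for Irf5 in endosomal signalling, rose by 1.74, Cd180, a receptor-like regulator of lipopolysaccharide responses, by 1.32 and Ly96, the MD-2 partner of Tlr4, by 0.48. The endosomal proteases Ctsk and Lgmn fell by 0.82 and 0.43. Unc93b1, the chaperone that carries endosomal receptors out of the endoplasmic reticulum, had a log2 fold change of -0.09 and was not called.

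Of 16 other pattern receptors in BMDC, 8 rose and 2 fell with MSA2 (median log2 fold change 0.36), where 14.6% of all genes rose and 13.5% fell. Ifih1, which encodes the RNA sensor MDA5, rose by 3.66 on the log2 scale, Ddx58, which encodes RIG-I, by 1.55, the DNA sensor Aim2 by 1.36 and Zbp1 by 1.11. With the combination 6 rose and none fell, where 7.51% of all genes rose and 5.38% fell, with Ifih1 at 2.89, Ddx58 at 1.13, Aim2 at 0.87 and Zbp1 at 0.68. Of the kinases and ligases, 5 rose and 1 fell with the combination, with Peli1 at 3.19, Map3k8 at 2.80, Traf6 at 0.42 and Traf3 at 0.40. Of the brakes, 4 rose and 1 fell, with Tnfaip3 at 3.66, Nfkbia at 2.54, Zc3h12a at 1.44 and Tnip3 at 0.60. Of the chaperones, co-receptors and proteases, 2 rose, 5430427O19Rik (1.38) and Cd180 (0.67), and 2 fell, Ctsk (-0.60) and Lgmn (-0.30). Adding IPI-549 to MSA2 gave no called gene in any of these lists.

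In B cells with MSA2, 24.9% of all genes tested rose and 18.5% fell. Whether the lists as such differed between the cell types was not tested. Of the 23 chaperones, co-receptors and proteases, 6 rose and 12 fell (median log2 fold change -0.28 against -0.01 over all genes), and those that fell included Cd180 (-1.11), Ly96 (-0.68) and Unc93b1 (-0.62). The protease Ctsb (2.25), Cd300lf (2.44), Grn (0.87) and Lbp (5.36), which binds lipopolysaccharide in serum, were among those that rose. Of the 10 transcription factors 2 rose and 5 fell, with Irf7 at 1.29, Rel at -0.72, Irf5 at -0.47 and Irf8 at -0.47. Of the 5 adaptors 2 rose, Myd88 (0.46) and Sarm1 (1.36), and Ticam1 fell (-1.09). Of the 21 kinases and ligases 5 rose and 7 fell, with Ikbke at 2.21, Peli2 at 6.57, Peli1 at 0.57 and Btk, a kinase of B cell receptor signalling, at -0.80. Of the 20 brakes 12 rose and 4 fell, with Tnfaip3 at 1.65, Il1rl1 at 4.35, Irak3 at -0.91 and Rnf216 at -0.51. Of the 16 other pattern receptors 13 rose and 1 fell, and those with the smallest p were Marco (5.59), Clec7a (4.20), Clec4d (7.02) and Clec4n (5.93). Lbp, Peli2, Il1rl1, Marco and Clec4d, like Tlr5, passed the filter only through the MSA2 libraries and so had to differ; their values are descriptions, and the counts of their lists include them. The same libraries carried the raised monocyte, neutrophil and T cell markers given above, whose part was not tested.

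With the combination, 4 genes of these lists rose in B cells and none fell, where 0.686% of all genes rose and 0.371% fell. They were Irf7 (log2 fold change 1.10 ± 0.12, adjusted p = 0.000472), Tnfaip3 (1.44 ± 0.08), Atf3 (1.36 ± 0.14) and Zc3h12a (0.78 ± 0.09). Myd88, Ticam1, Unc93b1, Ly96, Cd180 and Irak3 were not called, with log2 fold changes of -0.09, -0.75, 0.10, -0.05, -0.23 and 0.03. Summed monocyte and macrophage markers in these libraries lay at 42.3 to 45.5 CPM, within the Control range of 42.1 to 60.5 CPM. The sums of 3 lists lay below Control: those of neutrophils at 0.352 to 0.887 CPM against up to 32.4 CPM, those of T cells at 7.81 to 9.37 CPM against 12.3 to 32.1 CPM, and those of NK cells at 5.92 to 9.97 CPM against 13.5 to 18.4 CPM. Of these 3 lists, 1 T cell marker was called, lower. Of the 10 monocyte and macrophage markers 1 was called, lower, and of the 8 red cell precursor markers 2 were, both lower. Not all lists lay lower. Conventional dendritic cell markers summed to 1404 to 1742 CPM against 1177 to 1432 CPM in Control. Plasmacytoid dendritic cell markers summed to 1190 to 1251 CPM against 1227 to 1281 CPM. Both ranges overlapped Control, and no marker of either list was called. The part of these differences in the gene values was not tested.

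**Figure D4:**
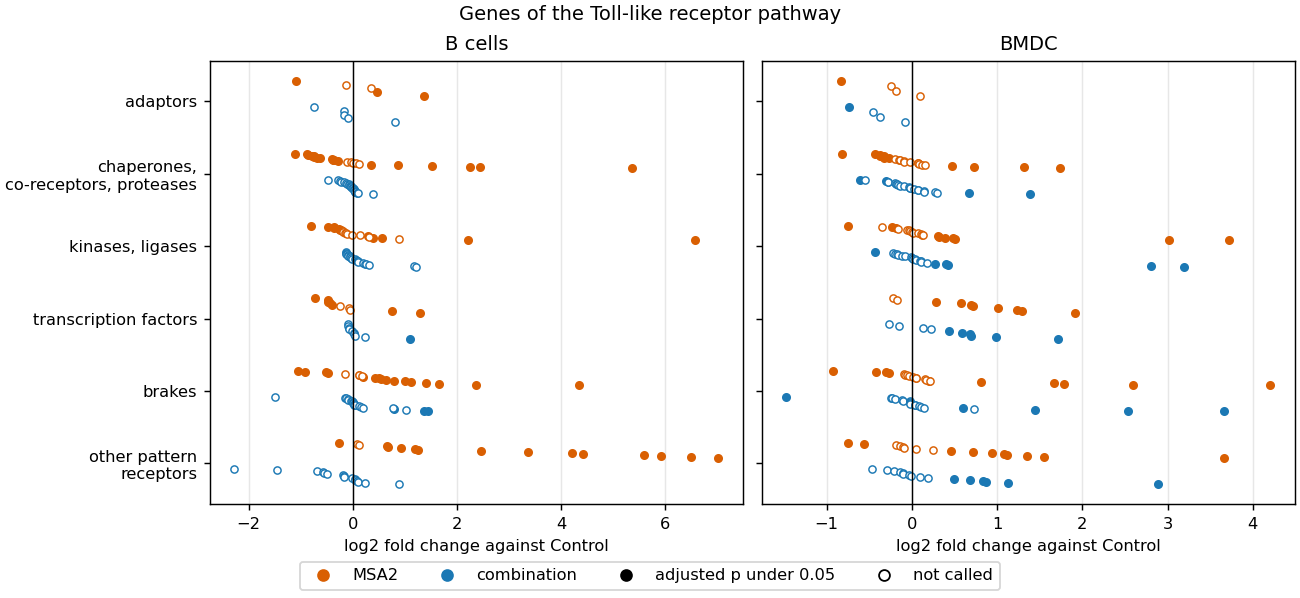
Log2 fold changes against Control of genes of 6 Toll-like receptor pathway lists, in B cells (left) and BMDC (right, on a narrower axis), with 1 point per gene and treatment; filled points have an adjusted p under 0.05. In BMDC the transcription factors lie mostly to the right of 0 for both treatments, and in B cells the filled points of the combination number 4.

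Some genes tracked the receptors closely across libraries, which share the treatment groups, so these correlations are descriptions. In BMDC (8 libraries), the genes most like Tlr2 in log2 CPM were Tnfsf15 (Pearson r = 0.998) and Il15ra (0.997), out of 9944 genes compared. Those most like Tlr9 were Samhd1 (0.991) and Grk3 (0.990), and those most like Tlr3 were Ipcef1 (0.988) and Cntrl (0.983). Tlr7 was most like Usp34 (0.983) and Nipbl (0.964). In B cells (9 libraries), Tlr2 was most like Tnfaip2 (0.997) and Gpr35 (0.996), Tlr9 like Urb2 (0.975) and Ccnk (0.975), Tlr7 like Zscan22 (0.950) and Wee1 (0.929), and Tlr3 like Cdc25a (0.921) and Polr3c (0.911).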

How the data were processed

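Bulk RNA-seq of 17 libraries was used as 2 tables of expected counts per gene, which the authors deposited as whole numbers. Per the submitters' processing notes, cutadapt 4.8, FastQC 0.11.8, STAR 2.7.8a, RSEM 1.3.3 and MultiQC 1.20 were used with GRCm38; the annotation release and the strand setting are not given in the sources used here. Estimated counts split reads that fit several genes, which touches Tlr1 and Tlr6.

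Counts were fitted per cell type over its 3 groups with edgeR 4.0.16 in R 4.3.3 (TMM scaling, default filter on low counts, quasi-likelihood F test). P-values were adjusted by Benjamini-Hochberg over all genes tested and a gene was called at an adjusted p under 0.05. Intervals are 95%. Differences between cell types came from 1 fit of all 17 libraries. CPM used TMM-scaled totals, and CPM per kilobase the summed exon length of GENCODE M21. The tests were run on simulated counts in which few genes were shifted. That setting is unlike the MSA2 libraries of B cells, so it does not give the error rates there. Whether the replicate numbers of the titles pair libraries was judged per comparison from the correlation of same-numbered deviations alone. In B cells these deviations correlated between the combination and MSA2 (0.232, 0.256 and 0.426, over 0.1 in 3 of 3 pairs). In no other comparison were all pairs over 0.1. Differently numbered libraries were not compared and the labels do not say what the numbers stand for, so the pairing is not established. Alternatives were RLE and upper quartile scaling, no filter, a filter of 1 CPM in 3 libraries, DESeq2 1.42.0, limma-voom (limma 3.58.1), a replicate block, the 2 groups alone, both of these together for the combination against MSA2 in B cells (added after seeing the data), and each library left out in turn.

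The genes and the pathway and marker lists were chosen with earlier results of these data known. All 10 receptor genes are named. In each pathway list, up to 4 called genes with the smallest p are named per comparison with Control, plus Myd88, Ticam1, Unc93b1, Ly96, Cd180 and Irak3. The genes most like Tlr2, Tlr3, Tlr7 and Tlr9 are the 2 with the highest Pearson r among genes that averaged 5 CPM or more.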

Additional observations from a re-analysis of the deposited data

Results flagged for a closer look

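The test of the difference between cell types passed the threshold for the following treatment effects, each given as the log2 fold change in BMDC minus that in B cells, with its SE, from 1 edgeR quasi-likelihood fit of all 17 libraries. For MSA2 against Control, the differences were 0.58 ± 0.11 for Tlr1, -1.33 ± 0.26 for Tlr2, -1.03 ± 0.22 for Tlr4, -6.42 ± 0.37 for Tlr8, 1.89 ± 0.31 for Tlr9, -5.67 ± 0.20 for Tlr13 and -5.69 ± 0.26 for Cd14. For the combination against Control, the difference was 2.01 ± 0.29 for Tlr2. For the combination against MSA2, the differences were -0.41 ± 0.12 for Tlr1, 3.34 ± 0.28 for Tlr2, 6.03 ± 0.38 for Tlr8, -1.08 ± 0.33 for Tlr9, 4.98 ± 0.20 for Tlr13 and 6.57 ± 0.28 for Cd14. In the last set, the call of Tlr1 was lost without BMDC combination replicate 1 (adjusted p = 0.0741) and with no filter on low counts (0.0623). The call of Tlr9 was lost without B cell combination replicate 2 (0.0688), BMDC combination replicate 2 (0.153) or BMDC MSA2 replicate 1 (0.0594). Tlr8 was tested in B cells only through the MSA2 libraries, so its differences are descriptions; the one for MSA2 was -7.52 without B cell Control replicate 1. The MSA2 libraries of B cells, which enter the first and the last set, also carried the raised markers of other cell types, and their part was not tested.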

How the results depend on the processing

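Over 100 log2 fold changes and differences of the 10 genes, 1469 values were recomputed under the alternatives. None changed sign with a call, and 1398 kept their status, whether called or not called. A call was lost in 38 and gained in 33. Of the 100, 73 kept their status throughout, which includes values that were never called. With no filter on low counts, 2 genes were called for the combination against MSA2 in BMDC, and 3 for the difference between cell types in the effect of the combination. With 1 library left out in turn, the count for the combination against Control in BMDC lay between 1 and 3, against 4 with all libraries. In B cells, same-numbered libraries of the combination and MSA2 groups correlated over 0.1 in 3 of 3 pairs, which does not establish that they are paired. There the replicate block left 8 genes called, 2 higher and 6 lower, in the fit of 3 groups and in a fit of the 2 groups alone that was added after seeing the data (Tlr6 adjusted p = 0.00383, Tlr9 2.42e-05), so it changed no call in that comparison. In the other comparisons same-numbered deviations correlated over 0.1 in 1 of 3 pairs at most in B cells and 1 of 2 in BMDC. With the block, 7 and 0 genes were called in B cells (MSA2 and combination against Control) and 6, 3 and 0 in BMDC (MSA2 and combination against Control, combination against MSA2), and Tlr13 in BMDC had a log2 fold change of -0.25 with the combination (adjusted p = 0.0945). Depth limits Tlr8 in B cells, with 14 counts over the Control libraries, and the combination group of BMDC holds 2 libraries. The Tlr1 to Tlr6 ratio rests on reads that the 2 genes partly share.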
